A study of Homo sapiens with 6 samples.

Results

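Macroautophagy builds a double membrane around cytoplasmic cargo and delivers it to the lysosome. The ULK1 kinase complex and a class III PI3-kinase complex start the process at the endoplasmic reticulum (ER). There the scramblases VMP1 and TMEM41B redistribute lipids between the leaflets of the ER membrane, and ATG2 and ATG9 proteins pass lipids into the growing membrane. Conjugation enzymes then attach ATG8 proteins (the LC3 and GABARAP families) to that membrane, where cargo receptors bind them. The retinal pigment epithelium is known for heavy lysosomal work, because it degrades shed photoreceptor outer segments.

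The transcripts described here are 40 genes of this machinery, of 19775 genes measured, in ARPE-19, an established human line of retinal pigment epithelium origin. The genes were chosen by function around VMP1, which was taken because it rose strongly in these data, so its change is a description and carries no test. Each gene is represented by its brightest probe set, by the mean of all 6 arrays, among those whose platform annotation names that gene alone. Each of the 40 had such a probe set, and all 40 lay at or above the median level of all probe sets.

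Cells grown in medium with serum received SRPIN803 at 10 µM (3 arrays) or, as the control, 0.1% DMSO (3 arrays), each for 4 h. SRPIN803 is a compound known to inhibit SRPK1, a kinase of splicing factors, and CK2, a broadly acting protein kinase. The question is which autophagy transcripts differed after this short exposure. Both groups are a single cell line, and whether the replicates were grown separately is not in the labels, so the spread behind each p-value may be technical only. In such bulk RNA a change in the share of cells expressing a gene and a change in RNA per cell cannot be told apart.

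Values are RMA levels on a log2 scale, 1 per probe set and array, and changes are SRPIN803 minus DMSO. Any 2 arrays of one group correlated at 0.9957 to 0.9977 over the probe sets (Pearson), and arrays of different groups at 0.9940 to 0.9961. Cell type was checked on 25 markers by the percentile of each among all probe sets, which also depends on the probes. The keratins KRT8 and KRT18 and the pigment epithelium factors OTX2 and MITF lay at or above percentile 93.5, and the epithelial cadherin CDH1 at 29.8. Of genes that mark mature pigment epithelium, RPE65, LRAT and TYRP1 lay at or below percentile 17, and BEST1, TTR, RLBP1, TYR, RDH5 and PMEL between 51.2 and 67.7. Endothelial markers ranged from percentile 7.47 (CDH5) to 64.1 (PECAM1), with VWF at 49.9. Leukocyte and myeloid markers ranged from 10.4 (PTPRC) to 53.2 (CSF1R), with CD14 at 25.4, and the photoreceptor gene RCVRN lay at 20.8. Fibroblast and mesenchymal markers ranged from 35.5 (COL1A2) to 94.3 (COL1A1), with THY1 at 57.8 and PDGFRB at 75.6. MITF was the 1 marker called by limma, and COL1A1 was at -0.42 ± 0.19 (adjusted p = 0.267). A gene was called, and is said to have risen or fallen, at a limma adjusted p under 0.05 over all genes. By that rule 5.84% of all genes were called, 3.46% higher and 2.37% lower.

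VMP1 has 4 probe sets that name it, but only 1 that names it alone. The other 3 name VMP1 together with MIR21, the gene of the microRNA miR-21. In RefSeq (GRCh38.p14) the MIR21 hairpin lies inside the VMP1 gene on the same strand, 918 bases before its end, so transcripts of either can reach these probe sets. The mature microRNA is too short for this labelling and was not measured. It is shown here, with its seed (bases 2 to 8) in capitals, because its gene shares those probe sets, and it lies at chr17:59841273-59841294 on the plus strand.
miR-21-5p: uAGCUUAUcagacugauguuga

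The promoter windows of VMP1 and of the called genes ATG4C, ATG101 and TFEB are shown because these 4 genes carry the changes described next. Each window runs from 250 bases before to 50 bases after the annotated gene start (RefSeq, GRCh38.p14). VMP1 lies at chr17:59707404-59707703 (plus strand), ATG4C at chr1:62783882-62784181 (plus strand) and ATG101 at chr12:52069728-52070027 (plus strand). TFEB has 3 windows on the minus strand, chr6:41735559-41735858, chr6:41735011-41735310 and chr6:41734352-41734651. Capitals mark CCGGAAG, an ETS-type motif, on either strand.
VMP1: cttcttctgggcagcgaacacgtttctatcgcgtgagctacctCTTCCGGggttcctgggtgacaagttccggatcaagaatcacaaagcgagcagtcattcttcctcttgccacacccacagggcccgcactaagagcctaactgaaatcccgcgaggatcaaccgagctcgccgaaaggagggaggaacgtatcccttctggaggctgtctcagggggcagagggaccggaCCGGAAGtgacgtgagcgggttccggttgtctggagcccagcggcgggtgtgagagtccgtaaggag
ATG4C: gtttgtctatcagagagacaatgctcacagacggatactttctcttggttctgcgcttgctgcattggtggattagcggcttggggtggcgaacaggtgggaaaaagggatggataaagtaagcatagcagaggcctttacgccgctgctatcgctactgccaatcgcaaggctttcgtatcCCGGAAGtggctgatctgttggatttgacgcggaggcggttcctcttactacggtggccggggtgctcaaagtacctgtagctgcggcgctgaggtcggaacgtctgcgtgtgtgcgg
ATG101: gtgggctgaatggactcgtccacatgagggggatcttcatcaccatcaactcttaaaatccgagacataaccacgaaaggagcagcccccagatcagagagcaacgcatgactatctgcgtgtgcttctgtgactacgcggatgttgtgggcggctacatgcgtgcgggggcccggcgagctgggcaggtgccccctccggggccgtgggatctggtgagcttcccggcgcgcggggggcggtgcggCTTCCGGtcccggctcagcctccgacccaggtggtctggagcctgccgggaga
TFEB window 1: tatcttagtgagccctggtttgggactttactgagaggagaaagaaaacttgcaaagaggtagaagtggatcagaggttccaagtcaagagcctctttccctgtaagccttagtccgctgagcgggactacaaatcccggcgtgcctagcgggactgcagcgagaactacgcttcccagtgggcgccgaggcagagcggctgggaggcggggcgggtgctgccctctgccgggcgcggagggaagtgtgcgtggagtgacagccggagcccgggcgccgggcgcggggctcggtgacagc
TFEB window 2: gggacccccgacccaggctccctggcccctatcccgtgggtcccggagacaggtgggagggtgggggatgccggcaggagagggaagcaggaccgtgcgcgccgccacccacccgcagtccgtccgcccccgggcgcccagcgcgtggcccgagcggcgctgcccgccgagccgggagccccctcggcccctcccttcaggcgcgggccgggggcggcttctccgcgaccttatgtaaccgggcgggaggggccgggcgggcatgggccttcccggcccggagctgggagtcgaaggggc
TFEB window 3: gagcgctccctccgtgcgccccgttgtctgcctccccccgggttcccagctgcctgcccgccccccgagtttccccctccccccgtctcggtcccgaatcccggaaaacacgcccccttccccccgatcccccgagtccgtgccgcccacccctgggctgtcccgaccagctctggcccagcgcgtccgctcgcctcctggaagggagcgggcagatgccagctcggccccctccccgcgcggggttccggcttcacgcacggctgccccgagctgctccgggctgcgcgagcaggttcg

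Motifs were searched on both strands in 47 windows of 37 members (3 members had no entry), beside all 35116 windows of the same length in the table. CCGGAAG was added to the search after the VMP1 window had been read. It occurs in 11 of the 47 windows (23.4%), in 12.9% of the 21490 windows of genes measured here and in 10.3% of all windows. The VMP1 window, which prompted the search, is 1 of the 11, so these shares are no test of the motif. In VMP1 its matches begin at positions -207 and -17 from the gene start, in ATG4C at -68 and in ATG101 at -3. The E-box CACGTG, the core of the site that TFEB and its relatives bind, occurs in 3 windows (6.38%), those of ATG14, ATG3 and LAMP1. It occurs in 8.36% of windows of measured genes and in 7.26% of all windows. The longer palindrome of lysosomal genes (the CLEAR palindrome), which contains that E-box, occurs in none of the 47. It occurs in 0.507% of windows of measured genes and in 0.353% of all windows. The CRE TGACGTCA (GABARAPL1), the AP-1 site TGACTCA (TFE3) and the FOXO site GTAAACA (CALCOCO2) occur in 1 window each (2.13%). Their shares are 2.35%, 4.1% and 2.87% in windows of measured genes, and 1.85%, 4.95% and 3.42% in all windows. None of these 6 motifs occurs in the 3 windows of TFEB. These matches are descriptions of the letters in these windows.

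VMP1, a multi-spanning ER membrane protein needed for autophagosome formation, had the largest change of the 40 genes. On its own probe set the DMSO arrays read 6.79, 6.76 and 6.37 and the SRPIN803 arrays 8.43, 8.40 and 8.33. Every SRPIN803 array lay above every DMSO array, by at least 1.54, and DMSO replicate 3 was the lowest. On this probe set the change was 1.75 ± 0.11 (limma standard error, n = 3 per group), a 3.36-fold rise. It ranked 7th among the rises of all 19775 genes. The next largest change of any of the 40 genes, in either direction, was 0.42. With any 1 array left out the change of VMP1 on this probe set was 1.61 to 1.82. The size depended on the probe set, and the brightest one naming VMP1, shared with MIR21, changed by 0.82 (1.765-fold).

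The 3 probe sets shared with MIR21 were also higher in SRPIN803, by unequal amounts. The one with the largest change read 10.78, 10.74 and 10.44 in DMSO and 12.22, 12.27 and 12.04 in SRPIN803, a change of 1.52 ± 0.11. The brightest read 11.001, 11.06 and 10.96 in DMSO and 11.79, 11.84 and 11.85 in SRPIN803, a change of 0.82 ± 0.07. DMSO replicate 3 was lowest in both, and neither overlapped between groups. The dimmest read 6.64, 6.86 and 6.55 in DMSO and 8.21, 7.24 and 8.0 in SRPIN803, a change of 1.13 ± 0.23. Here SRPIN803 replicate 2 stood below the other two, and without it the change was 1.42. Which transcripts each shared probe set reads was not tested.

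**Figure D1:**
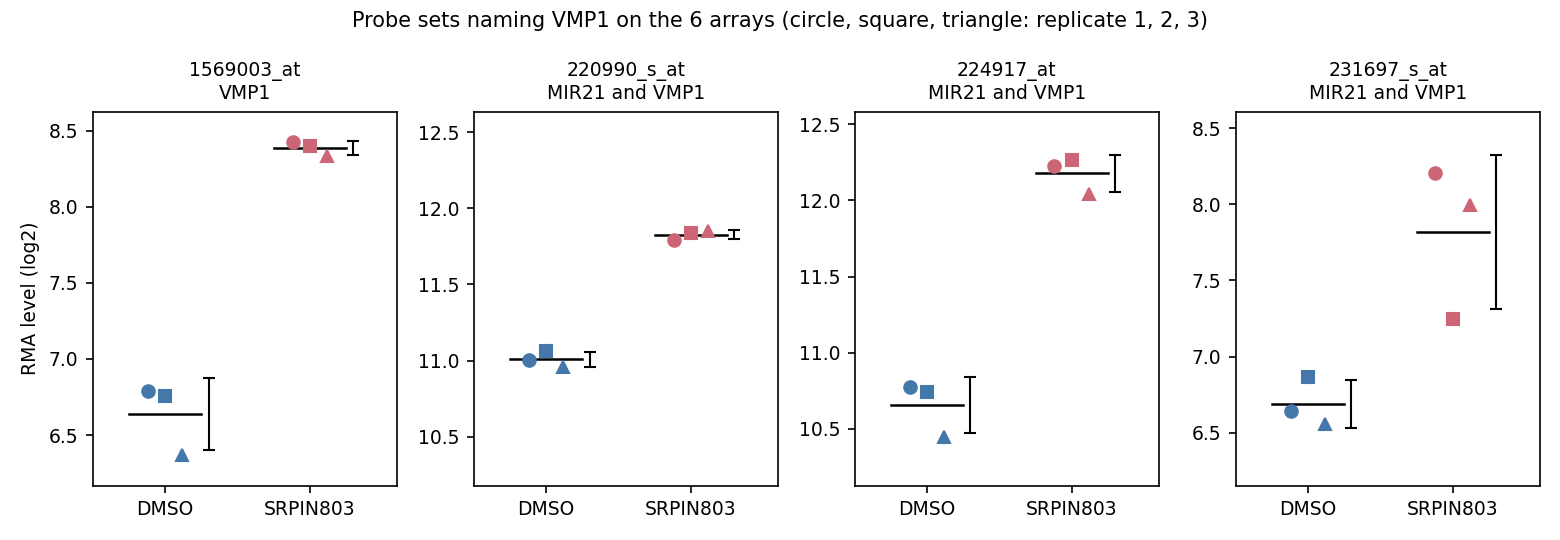
RMA level (log2, vertical axis) of the 4 probe sets that name VMP1, by group; symbols are arrays, horizontal lines group means and bars SD (n = 3), and all panels span the same range of log2 units. All SRPIN803 arrays lie above all DMSO arrays in each panel, with changes from 0.82 to 1.75.

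Measured genes near VMP1 on chromosome 17 changed less, and genes without a probe set naming them alone were passed over. Of the 3 nearest measured genes on either side, TUBD1, which encodes delta-tubulin and follows VMP1, rose by 0.39 ± 0.07 (limma adjusted p = 0.0211). RNFT1, an ER ubiquitin ligase gene, was at 0.29 ± 0.08 (adjusted p = 0.069), DHX40 at 0.14 ± 0.06 (0.298) and YPEL2 at 0.04 ± 0.08 (0.853). The clathrin heavy chain gene CLTC, the nearest measured gene before VMP1, was at -0.02 ± 0.05 (adjusted p = 0.892). The S6 kinase gene RPS6KB1 was at -0.18 ± 0.07 (0.194).

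Among the other 39 genes 3 were called (7.69%, beside 5.84% of all genes): ATG4C rose, and ATG101 and TFEB fell. At an unadjusted p under 0.05 there were 9 of 39 (23.1%, beside 19.5% of all genes). The median change over the 40 genes was 0.04 (0.039 without VMP1), beside 0.02 over all genes, and 23 genes were above 0 and 17 below. The groups did not overlap in 13 of the 40 genes, 9 higher and 4 lower, beside 25.6% of all genes with separate groups. VMP1, chosen on its rise, is counted among the 23 and among the 9. Of the 36 genes not called, 21 had a change smaller than 0.1 in size, and the 95% intervals of 35 lay within 0.5 of 0. The exception was ATG14, whose interval reached 0.56. With 3 arrays per group an exact permutation test of 1 gene cannot go below p = 0.1, so none was run.

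**Figure D2:**
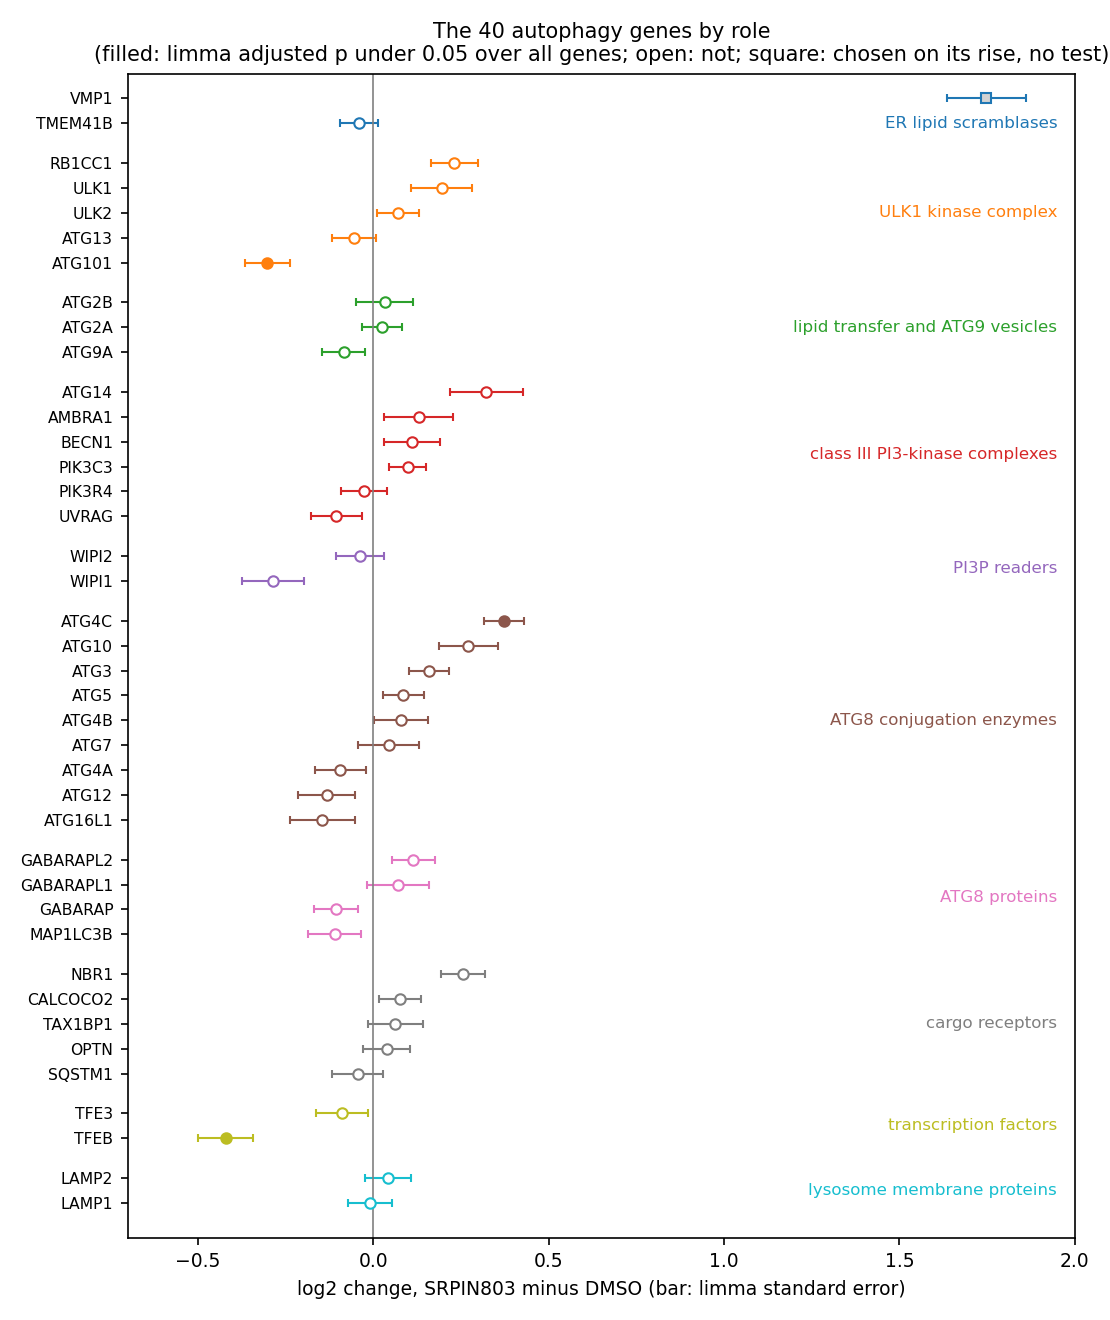
Log2 change (horizontal axis, SRPIN803 minus DMSO) of the 40 genes grouped by role, with limma's standard error as bars; filled circles passed an adjusted p under 0.05, open circles did not, and the square is VMP1, chosen on its rise. VMP1 stands at 1.75, and the other 39 genes lie between -0.42 and 0.37.

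TMEM41B, the other ER scramblase and a relative of VMP1, did not share its change. Its DMSO arrays read 10.60, 10.59 and 10.58 and its SRPIN803 arrays 10.53, 10.59 and 10.52, so the groups overlapped. The change was -0.04 ± 0.05 (limma adjusted p = 0.759), with a 95% interval of -0.17 to 0.09. A second probe set of TMEM41B was at -0.16 ± 0.07, with groups that did not overlap and no call over all probe sets (adjusted p = 0.286).

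In the ULK1 kinase complex, which receives nutrient and energy signals, 1 of 5 genes fell and none rose. Of all genes 2.37% fell and 3.46% rose. ATG101, which stabilises ATG13 within the complex, read 9.50, 9.52 and 9.49 in DMSO and 9.15, 9.30 and 9.16 in SRPIN803. All SRPIN803 arrays were lower, replicate 2 least so. The change was -0.30 ± 0.06 (limma adjusted p = 0.0359), 1.23-fold lower. ATG101 kept the call without SRPIN803 replicate 2 (adjusted p = 0.0352) and lost it without any other single array (adjusted p up to 0.123). It has 1 probe set.

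The scaffold gene RB1CC1 (FIP200) read 10.73, 10.94 and 10.80 in DMSO and 11.06, 11.06 and 11.04 in SRPIN803. The groups did not overlap, and its change of 0.23 ± 0.07 was not called (limma adjusted p = 0.101). Its other probe set was at 0.31 ± 0.08. The kinase genes ULK1 and ULK2 were at 0.19 ± 0.09 and 0.07 ± 0.06, and ATG13 at -0.06 ± 0.06.

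Of the genes for lipid transfer and ATG9 vesicles 0 of 3 were called by limma, and none had an unadjusted p under 0.05. The lipid transfer genes ATG2A and ATG2B, which act beside VMP1 at the ER, were at 0.03 ± 0.06 and 0.03 ± 0.08. ATG9A, a scramblase of the growing membrane, was at -0.09 ± 0.06 (limma adjusted p = 0.53), the largest of the 3 in size.

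In the class III PI3-kinase complexes, which make the lipid PI3P, limma called 0 of 6 genes (1 at an unadjusted p under 0.05). That gene was ATG14, the subunit that directs the complex to autophagy. It read 8.21, 8.38 and 8.33 in DMSO and 8.41, 8.71 and 8.77 in SRPIN803, with SRPIN803 replicate 1 close to the DMSO arrays. The change was 0.32 ± 0.10 (limma adjusted p = 0.13), and it passed without SRPIN803 replicate 1 (0.43, adjusted p = 0.0373). In the other 5 fits with 1 array left out ATG14 was not called (change down to 0.25, adjusted p up to 0.302). UVRAG, which defines the endosomal form of the complex, was at -0.11 ± 0.07. The shared subunits BECN1, PIK3C3 and PIK3R4 and the regulator AMBRA1 lay between -0.03 and 0.13.

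Of the PI3P readers, limma called 0 of 2 (1 at an unadjusted p under 0.05). WIPI1, often measured as a transcript marker of autophagy, read 10.04, 10.20 and 10.20 in DMSO and 9.70, 9.92 and 9.96 in SRPIN803. All SRPIN803 arrays lay lower, replicate 1 the most, and the change of -0.29 ± 0.09 was not called (adjusted p = 0.111). Its second probe set was at -0.32 ± 0.10. WIPI2, which recruits ATG16L1, was at -0.04 ± 0.07 on its brightest probe set, while its other 4 lay between 0.07 and 0.20.

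Among the ATG8 conjugation enzymes 1 of 9 rose and none fell, where 3.46% of all genes rose and 2.37% fell. ATG4C, a protease that trims ATG8 proteins and releases them from membranes, read 7.76, 7.73 and 7.79 in DMSO and 8.16, 8.16 and 8.07 in SRPIN803. The groups were apart by far more than their spread (SD 0.029 and 0.050, n = 3 each). The change was 0.37 ± 0.06 (limma adjusted p = 0.0127), 1.30-fold. It passed without any 1 SRPIN803 array and missed the threshold without DMSO replicate 1, 2 or 3 (adjusted p = 0.051, 0.0593 and 0.0578). ATG4C has 1 probe set.

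Its paralogs ATG4A and ATG4B were at -0.09 ± 0.07 and 0.08 ± 0.08, neither called, with overlapping groups. ATG10, the E2 enzyme for ATG12, was at 0.27 ± 0.08 (limma adjusted p = 0.118), and ATG3, the E2 enzyme for ATG8 proteins, at 0.16 ± 0.06 (0.18). In both genes every SRPIN803 array lay above every DMSO array. On their brightest probe sets the E1 enzyme gene ATG7 and the conjugate genes ATG5, ATG12 and ATG16L1 lay between -0.15 and 0.09. For ATG12 that was -0.13 ± 0.08, and its dimmer probe sets were at -0.03 ± 0.08 and 0.22 ± 0.07. The groups did not overlap on the last, which was not called over all probe sets (limma adjusted p = 0.171).

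Of the ATG8 proteins themselves 0 of 4 were called by limma, and none had an unadjusted p under 0.05. MAP1LC3B, the source of the LC3B marker, was at -0.11 ± 0.08, GABARAP at -0.11 ± 0.06, GABARAPL1 at 0.07 ± 0.09 and GABARAPL2 at 0.11 ± 0.06. GABARAPL2, the largest in size, read 11.91, 12.00 and 11.97 in DMSO and 12.00, 12.12 and 12.10 in SRPIN803, with a limma adjusted p of 0.377.

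Of the cargo receptors limma called 0 of 5 (1 at an unadjusted p under 0.05). NBR1, which gathers ubiquitinated cargo and peroxisomes, came closest. It read 10.69, 10.78 and 10.73 in DMSO and 10.92, 11.01 and 11.05 in SRPIN803, so the groups did not overlap. The change was 0.26 ± 0.06 (limma adjusted p = 0.0568), and its 3 dimmer probe sets ranged from -0.11 to 0.21. SQSTM1 (p62) was at -0.04 ± 0.07, OPTN at 0.04 ± 0.07, CALCOCO2 (NDP52) at 0.08 ± 0.06 and TAX1BP1 at 0.06 ± 0.08, all with overlapping groups.

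TFEB, a master transcription factor of lysosomal and autophagy genes, fell. It read 7.03, 6.93 and 7.19 in DMSO and 6.57, 6.66 and 6.65 in SRPIN803, and the spread was wider in DMSO, where replicate 3 was highest. The change was -0.42 ± 0.08 (limma adjusted p = 0.0254), 1.34-fold lower. TFEB kept the call without DMSO replicate 2 (adjusted p = 0.0409) and lost it without any other single array (adjusted p up to 0.0838). Its dimmer probe set was at -0.15 ± 0.08, with overlapping groups, and with the mean of both TFEB was not called (-0.29, adjusted p = 0.0683). Its relative TFE3 was at -0.09 ± 0.07 (adjusted p = 0.593).

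**Figure D3:**
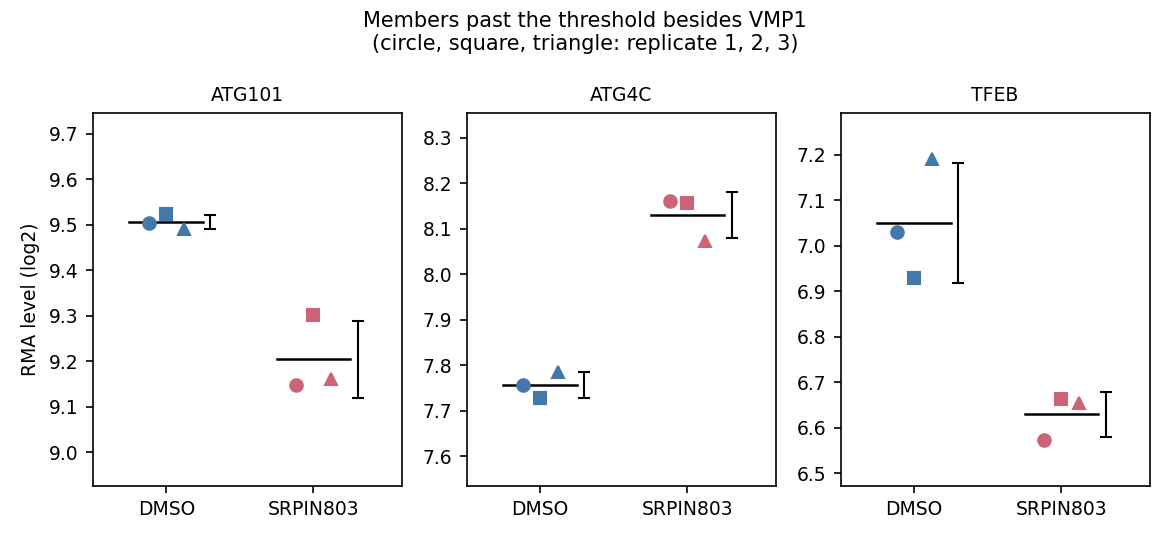
RMA level (log2, vertical axis) of ATG101, ATG4C and TFEB on each array; horizontal lines are group means and bars SD (n = 3), and the panels span the same range of log2 units. The groups do not overlap in any panel, and changes are -0.30, 0.37 and -0.42.

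The lysosome membrane genes LAMP1 and LAMP2 were at -0.01 ± 0.06 and 0.04 ± 0.07 (limma adjusted p = 0.954 and 0.796, none with an unadjusted p under 0.05). LAMP2 read 11.62, 11.75 and 11.76 in DMSO and 11.71, 11.72 and 11.82 in SRPIN803, so the groups overlapped. All 4 probe sets of either gene lay between -0.02 and 0.05.

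Probe sets of 1 gene did not always move alike. The 39 genes other than VMP1 have 107 probe sets, of which 87 lay at or above the median level, and 29 of the genes have more than 1. Adjusted over all 54613 probe sets, limma called 1 of the 107, that of ATG4C (adjusted p = 0.034), where 2.22% of all probe sets were called. ATG101 (adjusted p = 0.081) and TFEB (0.052) were not called on that scale.

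**Figure D4:**
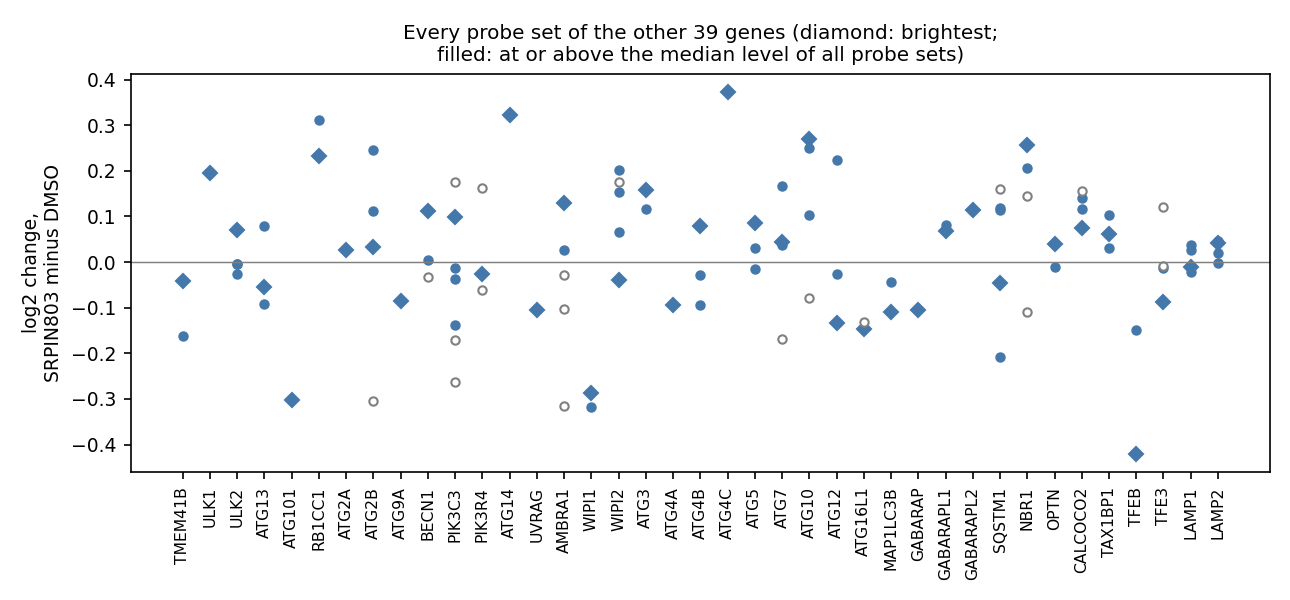
Log2 change (vertical axis) of each of the 107 probe sets of the 39 genes other than VMP1; diamonds are the brightest of each gene, and filled symbols lie at or above the median level of all probe sets. ATG4C at 0.37 and TFEB at -0.42 are the extremes.

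Further genes of the pathway were read from 8 lists that hold none of the 40 genes, with 133 of 140 genes analysed here. Of the 133, limma called 11 higher and 1 lower (9.02%, beside 5.84% of all genes), and their median change was 0.03. None of these 12 stayed called in all 6 fits with 1 array left out, and none in more than 3 (adjusted p up to 0.175).

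Upstream of ULK1, in nutrient and energy signalling, 5 of 31 genes rose and 1 fell (19.4% called, beside 5.84% of all genes). TSC1, a brake on the growth kinase mTORC1, rose by 0.38 ± 0.06 (limma adjusted p = 0.0154). The sestrin genes SESN1 and SESN3, which restrain mTORC1 when amino acids are low, rose by 0.35 ± 0.06 (adjusted p = 0.0239) and 0.36 ± 0.07 (0.0332). FLCN and FNIP1, partners that control TFEB family factors at the lysosome, rose by 0.33 ± 0.07 and 0.24 ± 0.05, and PRKAB1, an AMPK subunit gene, was the 1 that fell, at -0.36 ± 0.08. Other probe sets ranged from -0.22 to 0.20 for SESN3, from -0.25 to 0.14 for FLCN and from -0.07 to 0.20 for FNIP1. The other probe set of PRKAB1 was at -0.24, and TSC1 and SESN1 have 1 probe set each. FLCN, FNIP1 and PRKAB1 were called in none of the fits without 1 array. CASTOR1, of the same list, had the largest change in size of the 133 genes, at -0.50 ± 0.12. Its SRPIN803 arrays all lay below its DMSO arrays, and it was not called (limma adjusted p = 0.062).

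Among relatives of VMP1 and ER partners 2 of 10 rose and none fell (20% called, beside 5.84% of all genes). ZFYVE1 (DFCP1), a PI3P-binding protein that marks the ER sites where autophagosomes form, rose by 0.34 ± 0.06 (limma adjusted p = 0.0255), and its other probe set was at 0.39. TMEM38B, an ER cation channel and no relative of VMP1, rose by 0.47 ± 0.08 (adjusted p = 0.0211), with its other 2 probe sets at 0.30 and 0.54. ATP2A2, the ER calcium pump that VMP1 is known to regulate, was at -0.18 ± 0.07 (adjusted p = 0.236), and the DedA-family relatives TMEM41A and TMEM64 at -0.12 ± 0.07 and 0.02 ± 0.07.

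At the lysosome 1 of 29 genes was called (3.45%, beside 5.84% of all genes). It was ATP6V1C1, a proton pump subunit gene, which rose by 0.32 ± 0.06 (limma adjusted p = 0.0228). Its other probe sets ranged from 0.12 to 0.34. The median of that list was 0.07, beside 0.02 over all genes. Of 18 organelle and ferritin receptors 1 was called (5.56%, near the 5.84% of all genes). It was the ER-phagy receptor gene CCPG1, which rose by 0.36 ± 0.08 (limma adjusted p = 0.0487). CCPG1 was not called once any single array was removed.

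Of 11 other transcription factors of autophagy and lysosome genes 2 rose and none fell (18.2% called, beside 5.84% of all genes). MITF, a relative of TFEB, read 9.96, 10.06 and 10.13 in DMSO and 10.33, 10.39 and 10.47 in SRPIN803, a change of 0.35 ± 0.07 (limma adjusted p = 0.0312). Its direction was opposite to that of TFEB. Its other 2 probe sets were at -0.10 and 0.09, and no fit without 1 array called it. FOXO1 rose by 0.35 ± 0.07 (adjusted p = 0.0324), with 2 other probe sets at 0.09 and 0.10, and kept the call only without DMSO replicate 2.

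In 3 lists limma called no gene. The smallest p among 12 phosphoinositide enzymes and readers was that of PIK3C2A (0.17 ± 0.07, adjusted p = 0.199, 1 gene at an unadjusted p under 0.05). Among 8 further ATG8 and conjugation genes it was that of ATG16L2 (0.22 ± 0.07, adjusted p = 0.108, 2 genes), and among 14 fusion genes that of STX17, the autophagosome SNARE (0.21 ± 0.07, adjusted p = 0.173, 3 genes). Beside these counts, and those of the roles above, 19.5% of all genes had an unadjusted limma p under 0.05.

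**Figure D5:**
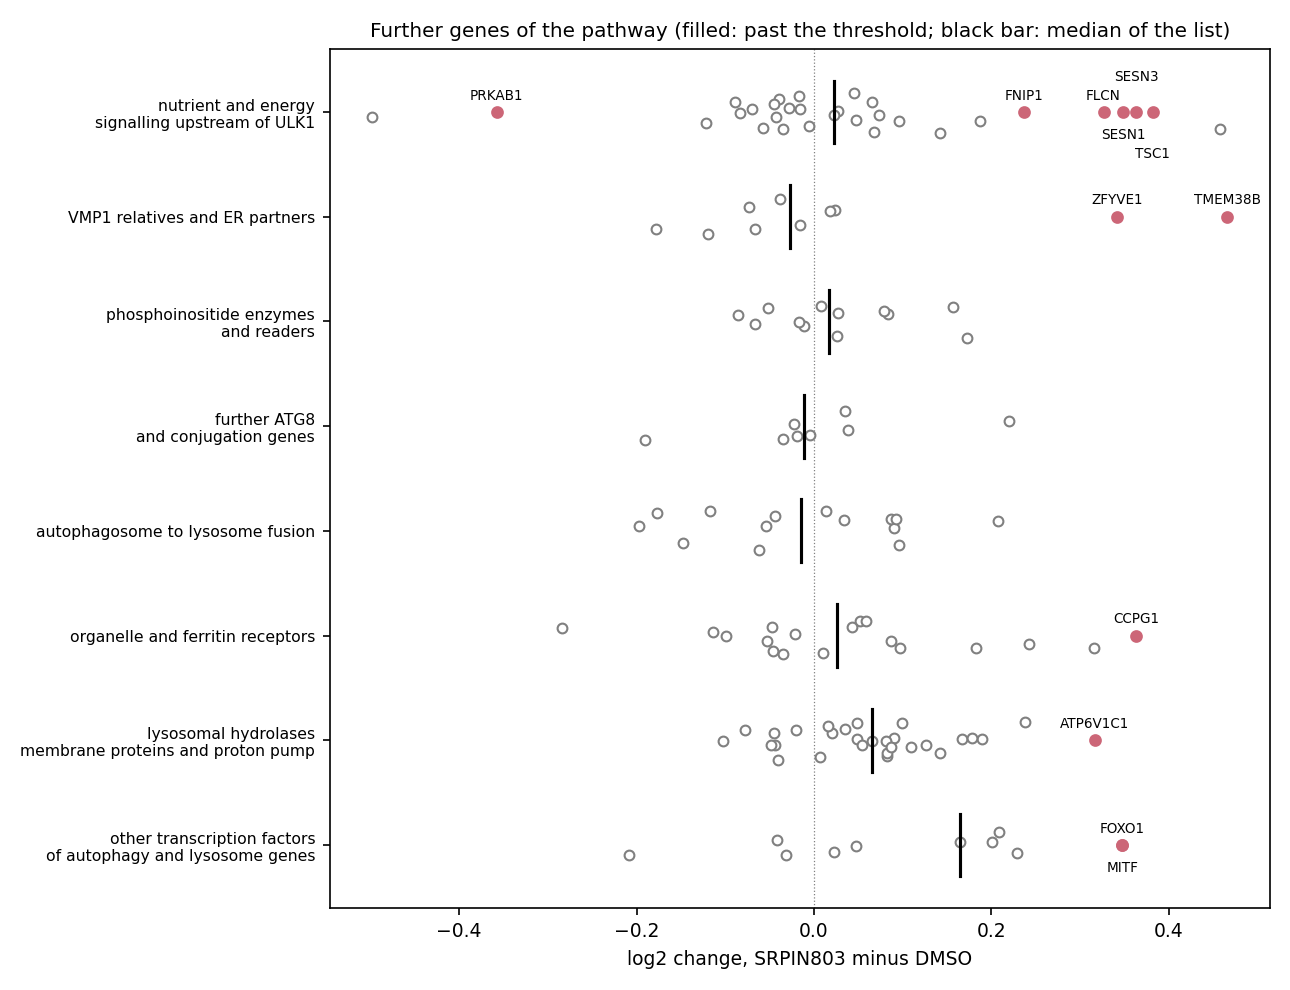
Log2 change (horizontal axis, SRPIN803 minus DMSO) of 133 further genes in 8 lists, with list medians as black bars; filled points passed an adjusted p under 0.05 over all genes and are named, open points did not. List medians lie between -0.03 and 0.16.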

How the data were processed

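Expression was measured on 6 Affymetrix 3' arrays, 3 per group. The deposited values are on a log2 scale, 1 per probe set and array, and the authors made them with RMA, per the submitters' processing notes, with a program and settings not given in the sources used here. They were used as deposited. RMA compresses changes of dim probe sets, and normalizing between arrays hides a change in total RNA. There is no read depth, and the number of arrays limits the precision.

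Of 54675 probe sets, 62 were controls. By the platform annotation 41091 carried the name of 1 gene, 1801 of several, and 11721 of none listed here. Of those naming 1 gene, 41037 were found in the RefSeq gene table under the same symbol, and 54 were not and keep the annotation's symbol.

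Groups were compared over 19775 genes by linear models with moderated variances (limma 3.58.1, R 4.3.3), which left 4 residual degrees of freedom. Tests were two-sided, p-values were Benjamini-Hochberg adjusted over all genes, and the procedure was tested on simulated data. Errors beside changes are limma's standard errors. The genes, lists, motifs and tests were chosen with earlier results of these data known. Named were all VMP1 probe sets, called members, the largest change of each role without a call, further members by role as values, the 3 called genes of each list with the smallest p (or the smallest p), and VMP1's neighbours. FLCN, FNIP1, PRKAB1, CASTOR1, ATP2A2, TMEM41A and TMEM64 were named after their values were seen. Alternatives covered arrays left out, the replicate number as a block, filters, probe set choice, normalization and variance model.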

Additional observations from a re-analysis of the deposited data

How the results depend on the processing

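The count of all genes called, 1154, was 689 with the replicate number as a block, 1905 among genes at or above the median level, 2036 with trended and robust variances, and 324 to 687 with 1 array left out. VMP1 carries no test and is left out of the next counts. The 1 other member called higher, ATG4C, became 3 among genes at or above the median level. The count was 5 at or above the 75th percentile level and 5 with trended and robust variances. It was 2 with the mean of all probe sets, with quantile normalization and with array weights, and 0 to 2 with 1 array left out. The filter at the 75th percentile level removed VMP1 itself. The 2 called lower became 0 with the block, 1 with the mean of all probe sets and 0 to 1 with 1 array left out. The 12 list genes became 6 with the block, 4 with the mean of all probe sets, 5 with probe sets not ending in _x_at or _s_at, and 1 to 4 with 1 array left out. Adjusted over all probe sets, an alternative chosen after seeing the data, 0 members were called lower and 2 list genes were called. In each setting with 0 lower, limma gave 3 or more members lower at an unadjusted p under 0.05. The change of LAMP2 was -0.0013 to 0.066 with 1 array left out. VMP1 kept its direction in every setting that measured it. It was chosen on its rise in these same arrays, so this is no test of that rise. NBR1 passed under 5 of 15 alternatives. The cause of these shifts was not tested.

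Same-numbered arrays of the groups correlated in their deviations from the group means at 0.18, -0.06 and 0.11. By these deviations, 2 of the 3 DMSO arrays were closest to the SRPIN803 array of their own number. These values do not settle whether the numbers pair the arrays. The main fit took no pairing, and the counts with the replicate number as a block are given above.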
